A study of Mus musculus with 19 samples.

Results

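Transcripts of 8 genes of regulatory T cells, Foxp3, Ikzf2, Ikzf4, Il2ra, Icos, Itgae, Il10 and Lrrc32, were measured in 19 primary p53/MCA sarcomas. They were chosen by symbol, and each matched 1 of the 48795 Ensembl genes in the table. Primary tumors were started by injecting an adenovirus with Cas9 and a guide RNA against Trp53 into the gastrocnemius muscle, together with 300 µg of the carcinogen methylcholanthrene (MCA), and all mice of both groups had received these and no therapy. The mice were male and female littermates of 6 to 10 weeks at injection, and tumors were taken at a volume of 70 to 150 mm3. The group labelled Rag2-/- held 11 tumors from mice without functional RAG2 and the group labelled Rag2+/- held 8 tumors from heterozygous mice, with 1 RNA sequencing library per tumor and 1 tumor per mouse. Because Cas9 came from a transient adenovirus, the cells edited were those infected in the muscle, and each bulk tumor mixed them with host immune, vascular and muscle cells. Values are upper-quartile normalized FPKM, a fragment number scaled to transcript length and library depth. They are given as the log2 of this level plus 0.1, so the lowest possible value, the floor, was −3.32.

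Regulatory T cells are CD4+ T cells that restrain other lymphocytes and maintain tolerance to self. They are specified by the transcription factor FOXP3, depend on interleukin-2 taken up through the high-affinity receptor chain CD25, and act through inhibitory receptors and cytokines such as interleukin-10 and TGF-beta. In tumors they are known for limiting responses of effector T cells. RAG2 cuts DNA with RAG1 to assemble the receptors of T and B cells, and mice that lack it form no mature T or B cells. Several of the 8 genes are also transcribed outside the T cell lineage, Lrrc32 in endothelial cells, mesenchymal cells and platelets, Il10 in macrophages, Itgae in dendritic cells, Icos and Il2ra in innate lymphoid cells, and Ikzf2 and Ikzf4 in other tissues.

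The labels were first checked against marker genes. Cd3e, a subunit of the T cell receptor complex, lay at the floor in 11 of 11 Rag2-/- tumors and between −0.61 and 2.90 in the Rag2+/- tumors, and 16 of 16 T cell markers had a lower mean in Rag2-/- tumors, 9 of them with an adjusted p under 0.05. The summed T cell markers ran from 11.2 to 25.4 normalized FPKM in Rag2-/- tumors and from 32.1 to 113.8 in Rag2+/- tumors. Rag2 itself averaged −0.34 ± 0.74 (SD, n = 11) under the Rag2-/- label against −1.31 ± 0.70 (SD, n = 8) under the other, a value over the whole gene that does not check the label, and Trp53 was detected in every tumor, between 3.47 and 6.35. Depth, estimated from the low values, was 5.23 M fragments on genes in the Rag2-/- tumor S41 and 24.8 to 33.7 M in the other 18. Of B and plasma cell markers 3 of 7 tested were called lower (Cd79a, Jchain and Igkc), and of macrophage, mast cell and group 2 innate lymphoid cell markers 0 of 8, 0 of 8 and 0 of 6 were called. Fibroblast and mesenchymal markers, typical of a sarcoma, summed to 1707 to 6076 and 1885 to 8222 normalized FPKM. Skeletal muscle markers ranged from 300.4 to 98556 in Rag2-/- tumors and from 1754 to 143863 in Rag2+/- tumors, and all 9 were lower in Rag2-/- tumors at an unadjusted p under 0.05, with a median difference of −2.28 and none past the adjusted threshold. Of 18418 genes tested with limma between genotypes, 37 (0.201%) were called lower in Rag2-/- tumors at a Benjamini-Hochberg adjusted p under 0.05 and 0 were called higher. Called higher were 14 in the 15 tumors of the study's figure and 13 without S51. At an unadjusted p under 0.05, 1601 (8.69%) were lower and 1187 (6.44%) higher. In 14 genes (0.076%) every Rag2-/- tumor lay below every Rag2+/- tumor. The median difference over all genes tested was 0.07.

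Foxp3 was the 1 of the 8 genes called between genotypes, and it was lower in Rag2-/- tumors. In the Rag2-/- tumors its log2 value ran from −2.60 through a median of −1.15 to −0.66. In the Rag2+/- tumors it ran from −0.68 through a median of 0.79 to 2.04. The ranges met at their edges, since 7 of 8 Rag2+/- tumors lay above the highest Rag2-/- tumor, S51, and the Rag2+/- tumor S53 lay just below it. The mean was −1.25 ± 0.53 (SD, n = 11) without RAG2, against 0.46 ± 0.96 (SD, n = 8). They differed by −1.71 with a standard error of 0.35 (limma, adjusted p = 0.0415), a 3.28-fold lower value on the scale that includes the added 0.1, which understates the change of low genes. Foxp3 stood at rank 36 of the genes ordered by p. A two-sided exact permutation test over the 75582 ways to choose 11 of 19 tumors gave p = 2.65e-05, and 0.0271 after adjustment over all genes tested, where the smallest possible p is 1.32e-05. The values rested on an estimated 6.5 to 48.1 fragments per Rag2-/- tumor and 26.7 to 369.4 per Rag2+/- tumor. In a bulk tumor, fewer cells of a type and less RNA per cell cannot be told apart.

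The adjusted p of Foxp3 stayed close to the threshold. It was 0.0172 to 0.0461 when S46, S51, S53, S54 or S56 was left out and 0.0620 to 0.114 when any one of S41, S42, S43, S44, S45, S47, S48, S49, S50, S52, S55, S58, S59 or S60 was left out, with a difference of −1.87 to −1.49 throughout. With the mean of the skeletal muscle markers as a covariate the difference was −1.67 and the adjusted p 0.159 (limma). In the 15 tumors of the study's figure, which do not include S41, S46, S51 and S56, the groups did not overlap and the difference was −2.03, with an exact permutation p of 1.55e-04, the smallest that 8 against 7 tumors allow.

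**Figure D1:**
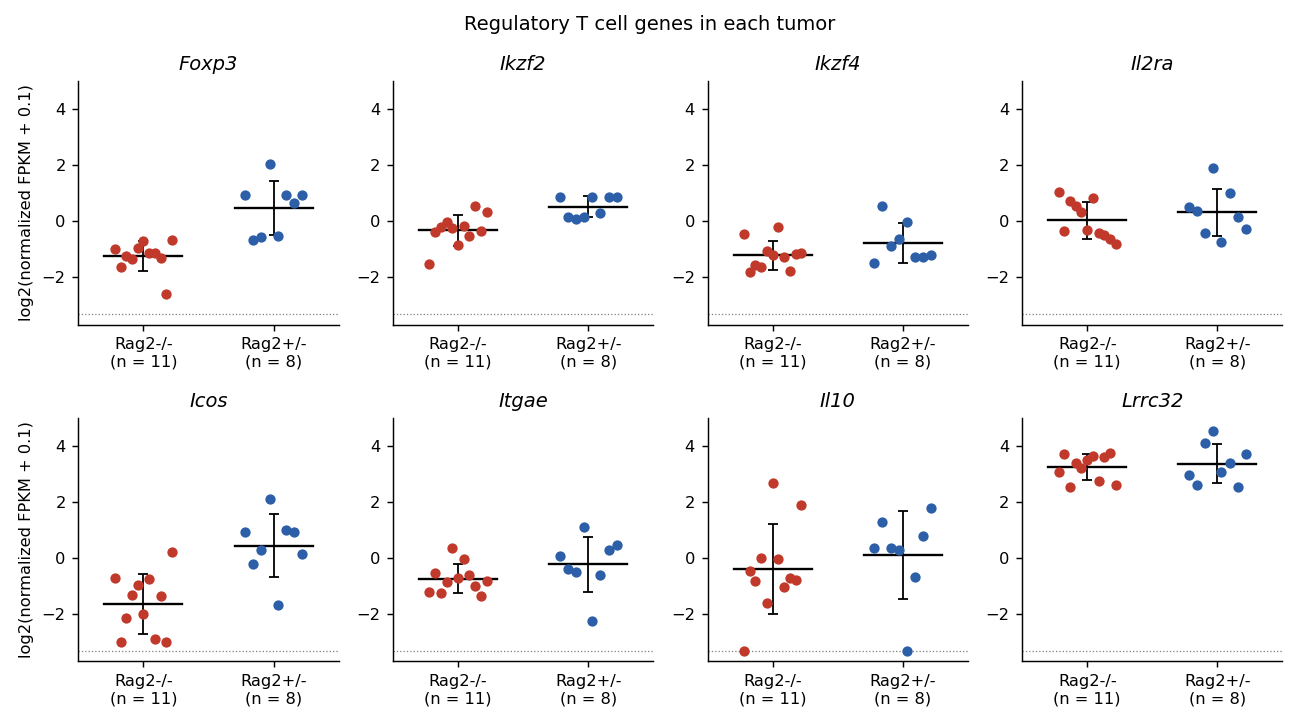
Log2(normalized FPKM + 0.1) of the 8 genes in each tumor, with 1 point per tumor (red, 11 Rag2-/- tumors; blue, 8 Rag2+/- tumors), the group mean as a horizontal line, the SD as a bar and the floor of −3.32 as a dotted line. Foxp3 and Icos lie lower in most Rag2-/- tumors, while the groups overlap for Lrrc32.

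Foxp3 (ENSMUSG00000039521) lies on the plus strand of the X chromosome, chrX:7573644-7595245 of GRCm38, with 10 annotated transcripts. Of its 4577 exonic bases, 1443 are shared with other genes. Ccdc22, which encodes a subunit of an endosomal sorting complex, runs on the opposite strand into the last Foxp3 exon and shares 590 bases, the long noncoding RNA Flicr shares 853 on the same strand, Gm36995 shares 373 and Ppp1r3f shares 266. These shared stretches overlap each other in part. No strand-marking step is stated for the libraries, so fragments from these stretches cannot be assigned to 1 gene. Ccdc22 was well above Foxp3 in both genotypes, at 3.36 ± 0.19 (SD, n = 11) in the absence of RAG2 and 3.22 ± 0.32 (SD, n = 8) otherwise. Ppp1r3f was at 0.13 and 0.45, Flicr at −2.33 and −2.38, and Gm36995 at −2.0 and −1.81, and the adjusted p of the 4 neighbors was 0.531 to 0.947 (limma). Foxp3 was above the floor in 11 of 11 Rag2-/- tumors, in which Cd3e was at the floor, and the part of shared exons in those values was not tested.

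**Figure D2:**
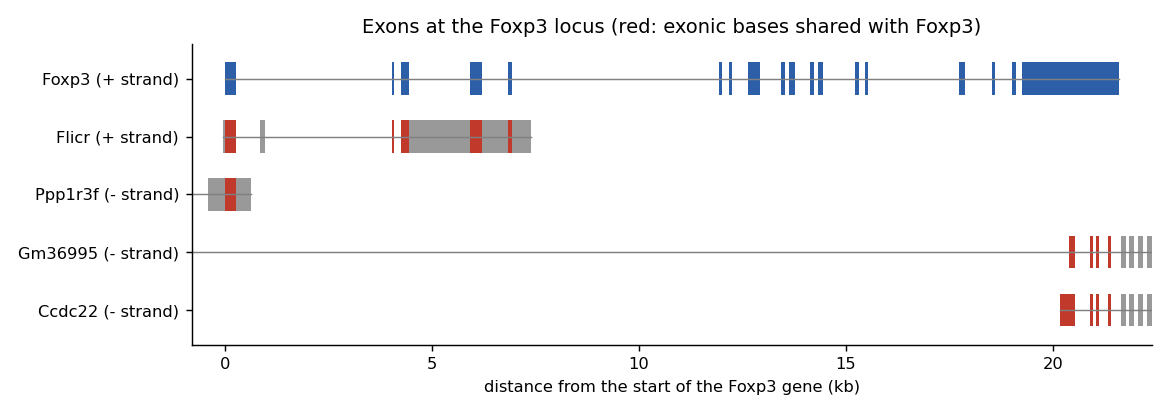
Exons of Foxp3 (blue) and of the 4 genes that share exonic bases with it (grey, shared bases in red), by distance in kilobases from the start of the Foxp3 gene, with the strand of each gene beside its name. Ccdc22 and Gm36995 share the last exon of Foxp3 and Flicr and Ppp1r3f share exons at its start.

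The RefSeq promoter table of GRCm38.p6 held entries for 2 of the 8 genes, Foxp3 with 2 start sites and Il2ra with 1. They are shown because Foxp3 was called between genotypes and Il2ra, the other gene with an entry, was not. Each window covered the 250 bases before a start site. Capitals mark the core bound by NFAT factors, GGAAA, and the STAT motif TTCNNNGAA, each searched on both strands. The first Foxp3 window ran to base 7579675 of the X chromosome. Its last 109 bases fall in an annotated Foxp3 exon and are not printed.
Foxp3, chrX:7579426-7579566, plus strand: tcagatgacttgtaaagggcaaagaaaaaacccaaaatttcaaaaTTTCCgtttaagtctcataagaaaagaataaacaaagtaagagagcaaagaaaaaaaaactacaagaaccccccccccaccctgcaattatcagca
Foxp3, chrX:7580233-7580482, plus strand: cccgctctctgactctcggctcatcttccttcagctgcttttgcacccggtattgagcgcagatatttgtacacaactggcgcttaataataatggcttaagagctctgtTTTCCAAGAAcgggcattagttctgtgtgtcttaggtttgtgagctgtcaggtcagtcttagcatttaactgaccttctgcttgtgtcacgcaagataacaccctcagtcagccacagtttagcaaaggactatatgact
Il2ra, chr2:11642542-11642791, plus strand: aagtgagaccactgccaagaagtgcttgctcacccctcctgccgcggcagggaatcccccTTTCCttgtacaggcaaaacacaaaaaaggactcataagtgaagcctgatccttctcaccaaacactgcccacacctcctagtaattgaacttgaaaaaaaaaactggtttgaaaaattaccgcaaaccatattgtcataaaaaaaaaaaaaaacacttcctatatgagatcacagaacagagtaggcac
Each of the 3 windows held 1 match to GGAAA, which 55.6% of all 32851 promoter windows of this length hold. The second Foxp3 window held 1 match to TTCNNNGAA, found in 7.02% of windows, which overlapped its GGAAA match. The first Foxp3 window held 1 match to TATAAA, among the bases not printed, and 12.4% of windows hold one. These matches describe letters only.

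Ikzf2 and Ikzf4 encode Helios and Eos, Ikaros-family zinc finger proteins found with FOXP3 in regulatory T cells. Ikzf2 (chr1:69531214-69687245, minus strand) ran from −1.53 through −0.25 to 0.53 in Rag2-/- tumors and from 0.06 through 0.58 to 0.88 in Rag2+/- tumors. The lowest 9 Rag2-/- tumors lay below every Rag2+/- tumor, and S49 and S51 lay inside their range. The difference was −0.84 with a standard error of 0.25 and did not pass the threshold (limma, adjusted p = 0.305), with an exact permutation p of 0.00156 that became 0.215 after adjustment over all genes. Ikzf4 (chr10:128630843-128645991, minus strand) ran from −1.82 through −1.22 to −0.20 and from −1.51 through −1.06 to 0.55, and the groups overlapped widely. Its difference was −0.43 with a standard error of 0.30 (limma, adjusted p = 0.442), and −0.24 without S53, the highest Rag2+/- tumor. With skeletal muscle as a covariate the difference of Ikzf2 was −0.55 (limma, adjusted p = 0.890). Of the other Ikaros-family genes, 0 of 3 were called. Ikzf3, the Aiolos gene of lymphocytes, was at −0.70 ± 0.46 (SD, n = 11) and 0.31 ± 1.41 (SD, n = 8), whereas Ikzf1 was at 3.04 and 2.78, and Ikzf5 at 2.73 and 2.94.

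Il2ra encodes CD25, the chain that gives the interleukin-2 receptor its high affinity. Its values (chr2:11642807-11693193, plus strand) ran from −0.83 through −0.32 to 1.02 in Rag2-/- tumors and from −0.74 through 0.27 to 1.88 in Rag2+/- tumors. The groups overlapped except for S51 at the bottom and S55 at the top. The difference was −0.27, with a 95% interval of −1.0 to 0.45 (limma, adjusted p = 0.670). Single tumors moved it to −0.05 without S55, −0.17 without S58 and −0.42 without S56, and it was −0.58 with skeletal muscle and −0.50 with Xist as a covariate, none of them past the threshold. Among 9 tested genes of the interleukin-2 receptor axis, 0 were called in either direction, with a median difference of −0.10 against 0.07 over all genes. At an unadjusted p under 0.05, 1 of the 9 was lower, beside 8.69% of all genes tested. That gene was Cish, a target of STAT5 signaling, at 0.93 ± 0.71 (SD, n = 11) and 2.10 ± 1.14 (SD, n = 8). The shared receptor chains Il2rb and Il2rg were at 2.77 and 4.78 in Rag2-/- tumors and at 2.57 and 4.86 in Rag2+/- tumors. Il2 itself was at the floor in 10 of 11 and 6 of 8 tumors and was not tested.

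Icos encodes a costimulatory receptor of the CD28 family that activated and regulatory T cells carry. It had the largest difference in means of the 8 genes. Its values (chr1:60977927-61000320, plus strand) ran from −3.01 through −1.37 to 0.21 in Rag2-/- tumors and from −1.69 through 0.61 to 2.10 in Rag2+/- tumors. The highest Rag2-/- tumor was S51 and the lowest Rag2+/- tumor was S56. In all, 5 of 8 Rag2+/- tumors lay above every Rag2-/- tumor. The difference was −2.07 with a standard error of 0.49 (limma, adjusted p = 0.125), with an exact permutation p of 0.00110 that became 0.200 over all genes. The adjusted p was 0.0367 without S51 and 0.0213 without S56, and above 0.05 in the other 17 of 19 fits with 1 tumor left out, up to 0.279 (limma). It passed in 1 of 13 other settings, and with skeletal muscle as a covariate the difference was −1.85 (limma, adjusted p = 0.469). In the 15 tumors of the study's figure, the difference was −2.67 (limma, adjusted p = 0.00674) and the groups did not overlap (exact permutation p = 1.55e-04). The Rag2-/- values rested on an estimated 2 to 51.8 fragments. Of 4 genes of the ICOS axis 0 were called. Cd28, the related receptor, was at −0.55 ± 1.22 (SD, n = 11) and 0.94 ± 1.09 (SD, n = 8), and Icosl, the ligand of ICOS, at 2.06 and 1.37. Natural killer cell genes, another lymphocyte list present in Rag2-/- tumors, were higher there for 4 of 8 at an unadjusted p under 0.05 (beside 6.44% of all genes tested) and 0 of 8 adjusted, with sums of 9.28 to 38.2 and 3.85 to 28.2 normalized FPKM. Group 2 innate lymphoid cell markers, of cells that carry Icos and Il2ra, summed to 27.5 to 227.6 and 27.7 to 204.6. Most of the higher sums was Il1rl1, which other cells also transcribe and which was at 6.64 ± 1.3 (SD, n = 11) and 6.05 ± 1.29 (SD, n = 8), while the cytokine genes Il5 and Il13 were each at the floor in 10 of 11 Rag2-/- tumors and in 8 and 7 of 8 Rag2+/- tumors. The part of either cell type in the Icos and Il2ra values was not tested.

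Itgae encodes CD103, the integrin chain that pairs with the product of Itgb7 to bind E-cadherin and that marks tissue-resident lymphocytes and a subset of dendritic cells. Its values (chr11:73090583-73147446, plus strand) ran from −1.38 through −0.83 to 0.35 in Rag2-/- tumors. In Rag2+/- tumors they ran from −2.25 through −0.17 to 1.09, and S56 was the lowest tumor of all 19. The difference was −0.51 with a standard error of 0.35 (limma, adjusted p = 0.446). It was −0.79 without S56 (limma, adjusted p = 0.580) and −0.32 without S55. Itgb7 was at 2.88 and 3.18, and Cdh1, which encodes E-cadherin, at −0.65 and −0.36, and 0 of these 2 were called. Markers of conventional dendritic cells were called in 0 of 9, with sums of 25.6 to 110.2 and 15.6 to 73.4 normalized FPKM.

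Il10 encodes interleukin-10, an inhibitory cytokine of regulatory T cells and macrophages. It varied more than any of the other 7 genes. Its values (chr1:131019845-131024974, plus strand) ran from −3.32 through −0.73 to 2.66 in Rag2-/- tumors and from −3.32 through 0.35 to 1.77 in Rag2+/- tumors. Each group had a tumor at the floor, S41 and S56, where 0 fragments allow a log2 value of up to −0.79 and −1.76, the level of 3 fragments. The highest values of all were 2.66 in S46 and 1.87 in S51, both Rag2-/-. The difference over 19 tumors was −0.49 with a standard error of 0.69 (limma, adjusted p = 0.702). In the 15 tumors of the study's figure it was −1.28, more than 1.5 times as large, with an exact permutation p of 0.00233 for the single gene and an adjusted p of 0.167 (limma). Leaving out single tumors moved it between −0.98 without S56 and −0.20 without S41. Macrophage markers summed to 2935 normalized FPKM in S46, the highest of all tumors, and to 484.6 in S56, the lowest. In S41, at the floor for Il10, they summed to 1482, and in S51, high for Il10, to 1183. Their part in the Il10 values was not tested. Of 7 genes of the interleukin-10 axis 0 were called. The receptor genes Il10ra and Il10rb were at 4.08 and 4.92 in Rag2-/- tumors and at 3.64 and 4.61 in Rag2+/- tumors.

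Lrrc32 encodes GARP, which holds latent TGF-beta on the surface of regulatory T cells, endothelial cells and platelets. It was the highest of the 8 genes in every tumor. Its values (chr7:98489283-98502181, plus strand) ran from 2.54 through 3.40 to 3.75 in Rag2-/- tumors and from 2.53 through 3.23 to 4.53 in Rag2+/- tumors, resting on an estimated 180.3 to 2526 fragments. S54 and S55 were above all Rag2-/- tumors, S59 was just below all of them, and the other 5 Rag2+/- tumors lay inside their range. The difference was −0.12, with a 95% interval of −0.65 to 0.42 (limma, adjusted p = 0.812). It was 0.051 without S55 and −0.24 without S59. Endothelial markers summed to 69.7 to 267.3 and 85.9 to 185.4 normalized FPKM with 0 of 8 called, platelet markers had 0 of 5 called, and fibroblast markers 0 of 9. In the GARP and TGF-beta activation list 0 of 11 genes were called, and the median difference was 0.02. At an unadjusted p under 0.05, 2 were lower and 1 higher, beside 8.69% and 6.44% of all genes tested. The 2 were integrin chains that release TGF-beta, Itgb6 at −1.48 ± 1.26 (SD, n = 11) against 0.38 ± 2.23 (SD, n = 8) and Itgb8 at −0.71 ± 0.45 (SD, n = 11) against −0.03 ± 0.64 (SD, n = 8). The gene that was higher was the receptor Tgfbr2, at 6.34 and 5.79. Tgfb1 was at 5.22 and 5.19, and Nrros, which encodes the GARP-like anchor of myeloid cells, at 4.73 and 4.34.

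All 8 genes had a lower mean in Rag2-/- tumors, against 43.8% of all genes tested with a negative difference, with a median of −0.50 against 0.07. The sign for Lrrc32 rested on S55, without which its difference was 0.051. Of the 8, 1 was called and 3 (Foxp3, Icos and Ikzf2) were lower at an unadjusted p under 0.05, beside 0.201% and 8.69% of all genes tested, and 0 separated the groups without overlap, beside 0.076%. FPKM is per length, so the genes can be ordered within a tumor. In Rag2-/- tumors the mean log2 level, from highest to lowest, had the order Lrrc32, Il2ra, Ikzf2, Il10, Itgae, Ikzf4, Foxp3 and Icos. In Rag2+/- tumors the order was Lrrc32, Ikzf2, Foxp3, Icos, Il2ra, Il10, Itgae and Ikzf4. Lrrc32 exceeded the next gene in 11 of 11 tumors, by 3.21 ± 0.84 (SD, n = 11), and in 8 of 8, by 2.84 ± 0.95 (SD, n = 8). Every other pair of neighbors in both orders differed by less than 1 SD of its within-tumor difference, the largest mean difference being 0.48 ± 0.62 (SD, n = 11) between Itgae and Ikzf4 in Rag2-/- tumors and 0.55 ± 1.45 (SD, n = 8) between the same genes in Rag2+/- tumors. Among Rag2+/- tumors S55 was highest for 5 of 8 genes, and S56, which held the most skeletal muscle RNA of all tumors, was lowest for 4. Among Rag2-/- tumors the highest value was spread over 7 tumors.

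A further 22 genes of regulatory T cells were examined, of which 3 were called lower (beside 0.201% of all genes tested) and 0 higher in Rag2-/- tumors, with a median difference of −0.10 against 0.07 over all genes. Ctla4, the inhibitory receptor that competes with CD28, was at −2.26 ± 0.86 (SD, n = 11) against 1.46 ± 1.18 (SD, n = 8), which differ by −3.72 with a standard error of 0.45 (limma, adjusted p = 9.5e-05). It ran up to −0.30 in Rag2-/- tumors and down to −0.78 in Rag2+/- tumors, and 7 of 8 Rag2+/- tumors lay above all Rag2-/- tumors. Tnfrsf18, which encodes the costimulatory receptor GITR, was at −0.16 ± 0.58 (SD, n = 11) and 2.0 ± 0.82 (SD, n = 8), with 7 of 8 Rag2+/- tumors above the highest Rag2-/- value (limma, adjusted p = 0.00108). Both were called in 19 of 19 fits with 1 tumor left out. Ccr8, a chemokine receptor of tumor regulatory T cells, was at the floor in 9 of 11 Rag2-/- tumors and 1 of 8 Rag2+/- tumors (limma, adjusted p = 0.0417). Its normalized FPKM was above 0.1 in 0 of 11 and 6 of 8 tumors, so it entered the test only through the Rag2+/- group. By the exact permutation test it was not called, with p = 3.04e-04 and 0.127 after adjustment over all genes tested. Ccr8 was called without S48, S53 or S56 and not without any one of the other 16, where its adjusted p was 0.0510 to 0.104. Others were lower without passing the adjusted threshold, among them Tnfrsf4, the OX40 gene, at −0.60 ± 0.90 (SD, n = 11) and 1.51 ± 1.58 (SD, n = 8), Izumo1r, which encodes folate receptor 4, at −2.90 and −1.23, and Ccr4, at the floor in 10 of 11 and 1 of 8 tumors. In all, 8 of the 22 were lower and 1 was higher at an unadjusted p under 0.05, beside 8.69% and 6.44% of all genes tested. The 1 that was higher was Klrg1, a receptor of natural killer and effector T cells, at 0.65 ± 0.84 (SD, n = 11) and −0.77 ± 1.18 (SD, n = 8). Entpd1, Nrp1 and Ebi3, which macrophages, vessels and dendritic cells also transcribe, were at 4.70, 5.0 and 2.63 in Rag2-/- tumors and at 4.69, 4.66 and 2.28 in Rag2+/- tumors.

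**Figure D3:**
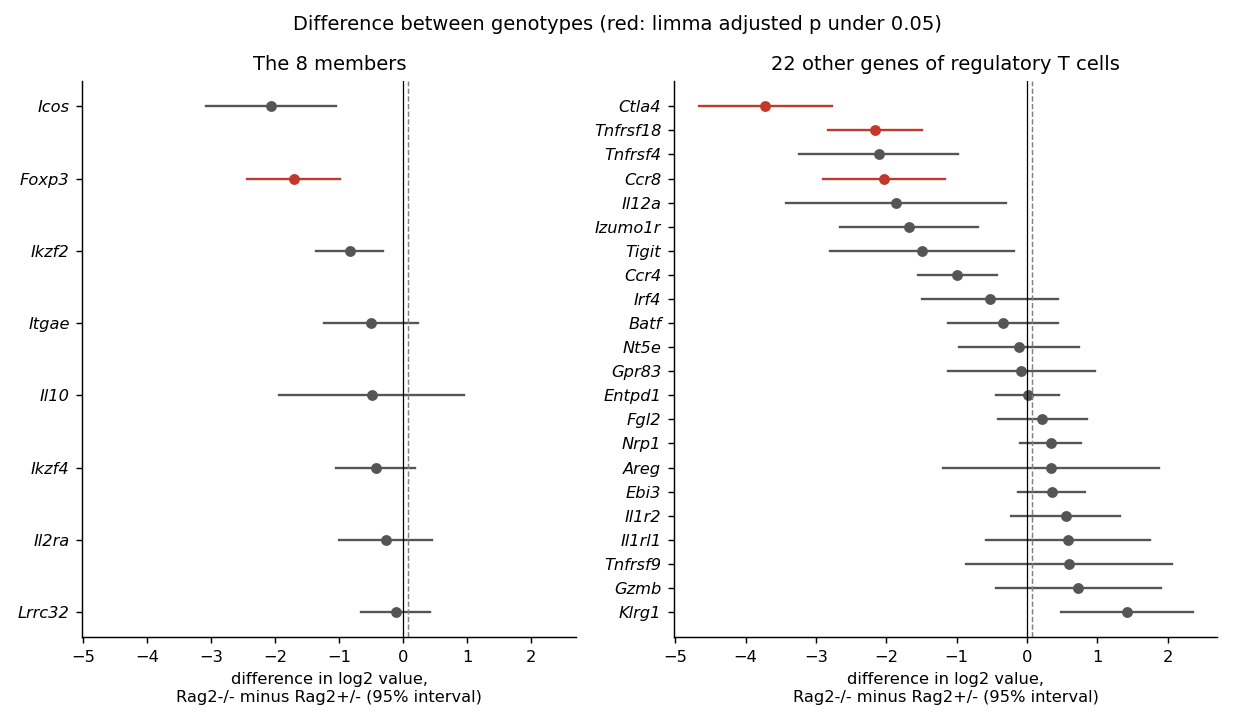
Difference in mean log2 value, Rag2-/- minus Rag2+/-, with its 95% interval (limma), for the 8 genes (left) and 22 other genes of regulatory T cells (right), with red for an adjusted p under 0.05 and a dashed line at the median of all genes, 0.07. Foxp3 at −1.71 and, on the right, Ctla4 at −3.72, Tnfrsf18 at −2.16 and Ccr8 at −2.03 are in red.

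Factors that act with FOXP3 in regulatory T cells were called in 0 of 12, with a median difference of 0.02. At an unadjusted p under 0.05, 1 of the 12 was lower and 1 higher, beside 8.69% and 6.44% of all genes tested. The lower was Satb1, a chromatin organizer of T cell development, at 1.94 ± 0.83 (SD, n = 11) and 3.23 ± 1.26 (SD, n = 8). The higher was Foxo3, at 3.76 ± 0.38 (SD, n = 11) and 3.27 ± 0.45 (SD, n = 8).

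Relations between genes were taken within the 8 Rag2+/- tumors, so that the difference between genotypes does not enter them. Foxp3 there had 3 tumors near the bottom (S53, S54 and S56, −0.68 to −0.53), 4 between 0.66 and 0.93, and S55 at 2.04. In S55 Icos, Il2ra and Itgae were also highest. Pearson's r of Foxp3 was 0.81 with Icos (exact permutation p = 0.0171), 0.75 with Il2ra (p = 0.0326, exact), 0.74 with Itgae (p = 0.0273, exact) and 0.74 with the mean of Cd3d, Cd3e and Cd3g (p = 0.0478, exact). None of the 8 relations computed passed adjustment over them, with adjusted exact p of 0.0869 for the first 3 and 0.0956 for the Cd3 mean. Spearman's rho was 0.60 (p = 0.132), 0.52 (p = 0.197), 0.67 (p = 0.0831) and 0.48 (p = 0.243) in that order, all exact, with adjusted p of 0.306 each. Without S53 and S54, the tumors farthest from the median of Foxp3, r was 0.94, 0.88, 0.90 and 0.58. With a pseudocount of 1, where S55 and S53 were farthest, leaving out these 2 gave r of 0.70, 0.72, 0.71 and 0.55. For the others r was 0.43 with Lrrc32, 0.26 with Il10, 0.10 with Ikzf2 and −0.58 with Ikzf4, with adjusted exact p of 0.219 to 0.728. Spearman's rho for these was 0.45, −0.10, 0.55 and −0.45, with adjusted exact p of 0.306 to 0.840. By rank Ikzf2 was thus above Il2ra and the Cd3 mean, and Il10 had the opposite sign to its r. In the 7 Rag2+/- tumors of the study's figure r with Il10 was −0.26. Without S53 and S54, r with Lrrc32, Il10, Ikzf2 and Ikzf4 became 0.68, 0.67, −0.66 and −0.41. The sign for Ikzf2 thus rested on those 2 tumors. Without S55 and S53, with a pseudocount of 1, r was −0.31, 0.51, 0.34 and −0.80 in the same order. The sign for Lrrc32 thus also rested on 2 tumors. For Ikzf4, r without S53, S54 and S56 was 0.91 over the 5 tumors left, so that its negative sign rested on those low tumors. In Rag2+/- tumors Ikzf4 was highest in S53 and S56, among the lowest for Foxp3.

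**Figure D4:**
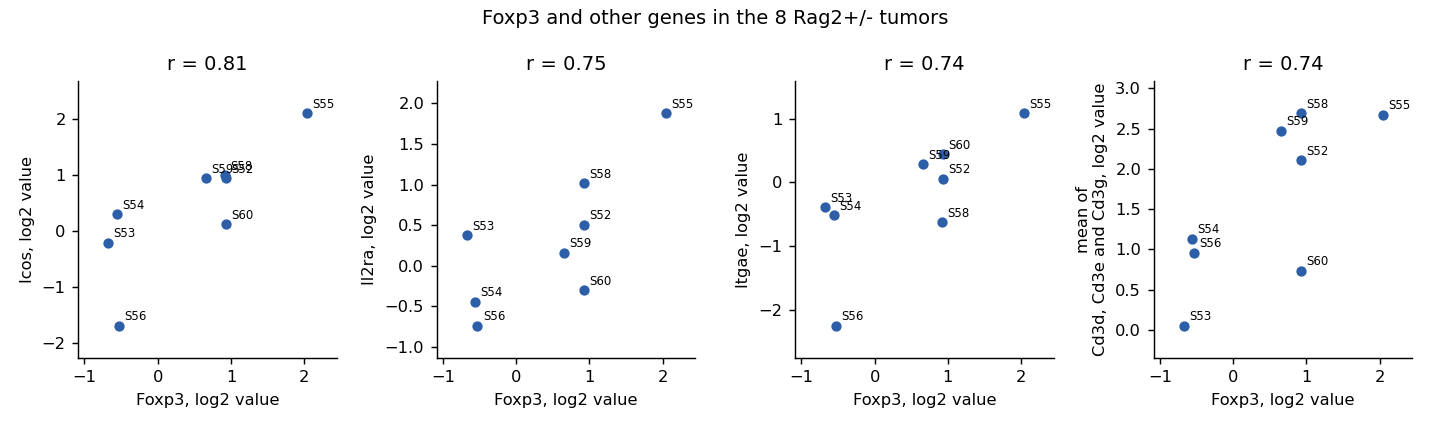
Log2 values of Foxp3 (horizontal) against Icos, Il2ra, Itgae and the mean of 3 Cd3 genes (vertical) in the 8 Rag2+/- tumors, each point 1 tumor with its library code. S55 is at the upper right in the first 3 panels, and Pearson's r runs from 0.74 to 0.81.

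Ratios of Foxp3 to T cell genes were formed in the Rag2+/- tumors. Normalized FPKM of Foxp3 divided by the sum of Cd3d, Cd3e and Cd3g was 0.0855 in S59, the lowest, with a median of 0.118 and a highest ratio of 0.359 in S60. S55, which had the most Foxp3, was at 0.206. Divided by Cd4 alone, the ratio was 0.331 to 0.760 with a median of 0.443, and its extremes fell on other tumors, the lowest on S54 and the highest on S55. Both genes of this ratio had a background in Rag2-/- tumors, where Cd4 was at 0.395 to 2.72 normalized FPKM and Foxp3 at 0.0653 to 0.534. In S53, S54 and S56 Cd4 was inside that range, at 1.12 to 1.75, and Foxp3 was near its upper end, at 0.526 to 0.593, and no background was subtracted. These are ratios of RNA and not of cells, and the ratio was not formed in Rag2-/- tumors, where Cd3e was at the floor.

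Genes were also ranked by Pearson's r with Foxp3 over the 8 Rag2+/- tumors. Only the 12822 other tested genes with a mean log2 value above 0 in these tumors were ranked. Lower genes, such as Ccr8 and Itgae, were left out. Among those ranked, the most alike were Selplg at 0.96, Plekha2 at 0.95, Gm12250, Crybg1 and Coro7 each at 0.95, and Itgal, Gbp2 and Slfn5 each at 0.94. Leaving out S55 gave r of 0.90 to 0.93 for these 8. They are the top of a long ranking over 8 tumors, and all genes were read from the same 8 libraries. Selplg encodes a selectin ligand of leukocytes and Itgal the integrin chain CD11a. In Rag2-/- tumors Selplg was at 5.03 ± 0.48 (SD, n = 11), against 4.87 ± 0.55 (SD, n = 8) in Rag2+/- tumors, and Itgal at 2.12 and 2.20.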

How the data were processed

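RNA of 19 primary p53/MCA sarcomas was sequenced by the study as paired-end reads of Illumina libraries, 1 per tumor. The authors mapped them in Array Studio (Omicsoft Sequence Aligner, at most 2 mismatches) to mouse build B38, quantified Ensembl R86 genes as FPKM, upper-quartile normalized these and took log2 values. The submitters' processing notes also name Trimmomatic 0.36, STAR 5.5.4b, HTSeq and mm10 without a role. The deposited log2 values had a floor at the log2 of 0.1, so 0.1 had been added, and 63.0% of values lay there. They are not counts, and no count test was used. Differences smaller than a few fragments cannot be resolved: a single fragment on 1 kilobase of transcript added 0.034 to 0.085 to the normalized FPKM, or 0.209 in tumor S41. This depth was read from low values of genes with 1 transcript, of which 81.6% to 89.0% were whole to within 0.05 fragments, with GENCODE vM21 lengths, another release than the authors'. Counting error only is covered by the limit of 3 fragments given for a count of 0.

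Ensembl identifiers were paired with symbols for 48349 of 48795 genes, and 0 columns were left without a tumor. Groups follow the genotype in the labels. Genes with a normalized FPKM above 0.1 in at least 4 of 19 tumors (18418 genes) entered a limma fit (version 3.58.1, R 4.3.3) whose variance prior followed intensity, and p was adjusted over all of them by Benjamini-Hochberg, with a threshold of 0.05. Single genes were also compared by two-sided exact permutation in Python 3.11.15 with numpy 2.4.6, pandas 2.3.3 and scipy 1.17.1, and figures were drawn with matplotlib 3.10.9. The code was tested on simulated data. Named genes were the 8 members, the genes of fixed pathway and marker lists, the 8 genes most like Foxp3, and Rag2 and Trp53. The 4 genes that share exons with Foxp3 were added after seeing the data. Members and lists were chosen with earlier results of these data known, so no list was tested as a set. Alternatives were the 15 tumors of the study's figure, each tumor left out, other pseudocounts (1 and 0.01), filters, normalizations, variance models, covariates and the exact test for every gene. Promoters came from RefSeq (GRCm38.p6). Other motifs, isoforms and exome data were not analysed here.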

Additional observations from a re-analysis of the deposited data

Results flagged for a closer look

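For single genes and ratios in the 8 Rag2+/- tumors, the gap of the most extreme tumor to its neighbor was compared with Dixon's critical share of the range, 0.526, which chance exceeds in about 1 of 20 groups. Of 68 sets of values checked, 9 exceeded it, and the larger Rag2-/- group was not checked. The Rag2+/- tumor S56, one of the 4 tumors outside the study's figure, was the low extreme for 5 of them, Tnfrsf4 at −1.92, Tigit at −3.32, Klrg1 at −3.32, Il10rb at 2.99 and Nrros at 3.08 on the log2 scale. Of the Rag2+/- tumors S56 also had the highest sum of skeletal muscle markers, 143863 normalized FPKM, and the lowest sums of T cell, natural killer cell and macrophage markers, 32.1, 3.85 and 484.6, and the part of muscle in its values was not tested. Nrp1 was high in S55, at 5.17, Il13 was at −1.89 in S58 and at the floor in the other 7 tumors, and Ccdc22, the antisense neighbor of Foxp3, was low in S54, at 2.53. The ratio of Foxp3 to the 3 Cd3 genes was 0.359 in S60, against at most 0.206 in the other 7 tumors.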

How the results depend on the processing

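The difference of Foxp3 was negative under all 13 other settings and in all 19 fits with 1 tumor left out, with values of −2.03 to −0.83 and −1.87 to −1.49. Its adjusted p was under 0.05 in 6 of the 13 (0.0233 to 0.159 overall) and in 5 of the 19 (0.0172 to 0.114). It missed the threshold without S41 (−1.74), with pseudocounts of 1 (−0.83) and 0.01 (−1.99), with a filter of 8 tumors (−1.71), with no filter (−1.71), and with Xist (−1.70) or the skeletal muscle markers (−1.67) as a covariate. A filter on a mean log2 value above 0 removed Foxp3, Ikzf4, Il10, Itgae and Icos from the test. The number of members called was therefore 0 under these 7 settings and under the mean filter, 2 in the 15 tumors of the study's figure, and 0 to 2 with single tumors left out. Genes called among all tested numbered 37, with 61 in the 15 tumors (47 lower and 14 higher), 22 under the filter of 8 tumors, 4 under the mean filter, 21 by the exact test, and 29 to 58 with single tumors left out, the most without S51 (45 lower and 13 higher). Of the 22 other genes of regulatory T cells, 1 was called under the mean filter and 2 to 4 with single tumors left out or other settings, an alternative chosen after seeing the data. With single tumors left out Lrrc32 ran from −0.24 to 0.051, and reversed only without S55. With a pseudocount of 1 the relations of Foxp3 with Icos (r = 0.87), Itgae (r = 0.81) and Il2ra (r = 0.80) passed adjustment, each with an exact adjusted p of 0.0489. Foxp3 and Il10 reversed to r = −0.26 in the 7 Rag2+/- tumors of the study's figure. The median ratio of Foxp3 was 0.443 to Cd4 and 0.387 to Cd3e. Where no value above bears on it, the cause was not tested. No paired analysis was possible because the labels pair no Rag2-/- tumor with a Rag2+/- tumor. Low fragment numbers limit Icos, on an estimated 2 in S42 and S50, and Foxp3 and Itgae, on 6.5 in S50 and 5 in S56.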
